A study of Rattus norvegicus with 9 samples.

Results

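The comparison described here is that of MK-801 with vehicle in the rat hippocampus, read by small RNA sequencing. Its libraries were taken by their labels: 3 from the MK-801 group and 3 from the vehicle (VEH) group, 6 of the 9 libraries of the series, with all 633 listed rat miRNAs. The rats were of the Sprague-Dawley strain. The age label reads postnatal day 21, whereas the protocol places the start of treatment at 5 weeks of age, after 14 days of habituation. Rats of the MK-801 group were injected intraperitoneally with 0.2 mg/kg MK-801 once a day for 14 days and then with saline for 7 days, so that the tissue was taken after a week without the drug. VEH rats had saline for 14 and then 7 days. Each group had 10 rats, but the number of rats behind each library is not in the labels, and p-values here measure the spread between libraries, which may be technical. The remaining 3 libraries were from rats given the same MK-801 course followed by 10 mg/kg clozapine for 7 days (MK-801+CLO). They entered only the estimate of that spread, the choice of miRNAs with enough counts to test and the scaling between libraries.

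MK-801 (dizocilpine) blocks the open channel of the NMDA receptor, the glutamate receptor that couples synaptic activity to calcium entry, and repeated dosing is used in rats as a pharmacological model of schizophrenia. A miRNA is cut from 1 of the 2 arms (5p or 3p) of a hairpin precursor and, loaded into an Argonaute protein, represses mRNAs that pair with its seed, bases 2 to 8. Neurons hold abundant miRNAs, some in dendrites near synapses, and several miRNA genes are transcribed in response to activity through the transcription factor CREB.

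The mature sequences on which the comparison turns are printed 5′ to 3′, with the seed in capitals. They are RefSeq sequences of assembly GRCr8, in which 574 of the 633 names were matched, each with the same letters as in the deposited table. For miR-30b-5p, miR-30d-5p, miR-301a-3p and miR-455-5p the letters are those of the deposited table, written as RNA.

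The first set is miR-138, whose 5p arm is the most abundant miRNA among those with the smallest p-values, shown with the 3p arms of its 2 hairpins.
miR-138-5p: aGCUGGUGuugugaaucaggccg
miR-138-1-3p: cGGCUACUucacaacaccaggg
miR-138-2-3p: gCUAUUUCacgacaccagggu

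The second set holds members of the miR-30 and miR-384 seed family, which share 1 seed and lay on both sides of 0.
miR-30a-5p: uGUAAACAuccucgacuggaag
miR-30b-5p: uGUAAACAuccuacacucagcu
miR-30c-5p: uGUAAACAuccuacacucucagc
miR-30d-5p: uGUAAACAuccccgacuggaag
miR-30e-5p: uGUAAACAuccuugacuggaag
miR-384-5p: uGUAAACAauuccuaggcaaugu

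The next set holds miRNAs that were above VEH in all 3 MK-801 libraries.
miR-101a-3p: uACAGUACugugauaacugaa
miR-101b-3p: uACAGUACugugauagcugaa
miR-340-5p: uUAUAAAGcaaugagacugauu
miR-21-3p: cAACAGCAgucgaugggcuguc
miR-184: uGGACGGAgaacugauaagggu
miR-301a-3p: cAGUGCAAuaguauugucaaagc
miR-6324: uCAGUAGGccagacagcaagcac

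The last set holds miRNAs whose mean was lower in the MK-801 libraries, with both arms of miR-455 for comparison.
miR-409b: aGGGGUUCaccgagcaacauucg
miR-377-5p: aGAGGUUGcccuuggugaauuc
miR-455-3p: gCAGUCCAcgggcauauacacu
miR-455-5p: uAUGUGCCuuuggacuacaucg
miR-204-5p: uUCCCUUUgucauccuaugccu
miR-211-5p: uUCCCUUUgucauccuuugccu
miR-1298: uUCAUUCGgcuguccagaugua
miR-448-3p: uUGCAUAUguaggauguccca

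Levels are CPM, a library's miRNA counts scaled to a common total. The 6 libraries held 11768778 to 18284905 counts, and 558 to 574 miRNAs were detected in each. Where no read was counted, a level of up to 0.164 to 0.255 CPM remains possible (a floor of 3 counts, for counting error only). The 10 most abundant miRNAs took 64.6 to 66.3% of the counts of each library. miRNAs of neural tissue were abundant, with miR-124-3p between 2870 and 3501 CPM and miR-9a-5p between 81699 and 91869 CPM, but these do not tell the hippocampus from other brain regions. Among miRNAs of other tissues, miR-1-3p of muscle was at most 0.539 CPM and miR-122-5p of liver at most 0.605 CPM, while miR-133a-3p of muscle was between 17.2 and 23.4 CPM and miR-375-3p of endocrine cells between 93.8 and 237.5 CPM. One library stood apart on a set of markers: VEH replicate 3 carried more of the miRNAs known from choroid plexus, the tissue that secretes cerebrospinal fluid, and the values that rest most on it are given with and without it.

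No miRNA passed an adjusted p of 0.05 between MK-801 and VEH. Among 469 miRNAs with enough counts to test, edgeR's quasi-likelihood test with Benjamini-Hochberg adjustment called 0, and the smallest adjusted p was 0.182, for miR-6324. By the same edgeR test 24 miRNAs had an unadjusted p under 0.05, which is 5.12% of those tested and close to the 5% that the threshold itself allows. Of these, 14 were higher (2.99%) and 10 lower (2.13%) in MK-801. With upper-quartile scaling the split was 28 higher and 6 lower, and with library totals alone 12 and 13. DESeq2 called 1 miRNA (0.213%), again miR-6324, and had 26 at an unadjusted p under 0.05. limma voom called 0 and had 25. The edgeR count at the unadjusted threshold fell to 15 on leaving out VEH replicate 3 and was 37 on leaving out MK-801 replicate 2.

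Distances between libraries within and across groups overlapped. Between 2 libraries of the same group the median absolute log2 difference over miRNAs ran from 0.157 to 0.195 in 6 pairs, with a mean of 0.178, and across groups from 0.15 to 0.238 in 9 pairs, with a mean of 0.186. The nearest pair and the 2 farthest pairs were all across groups. The median log2 fold change (MK-801 minus VEH) over all tested miRNAs was -0.018, with 218 above and 251 below 0. Most miRNAs were measured closely enough to bound a change. The 95% interval lay within 2-fold either way for 396 of the 469 (84.4%) and within 1.5-fold for 279. The fitted difference itself was under 0.25 on the log2 scale for 354 miRNAs and over 1 for 10, of which 7 averaged under 5 CPM. In 59 miRNAs (12.6%) all 3 MK-801 libraries lay on 1 side of all 3 VEH libraries after TMM scaling (edgeR's correction for library composition), 28 above (5.97%) and 31 below (6.61%).

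**Figure D1:**
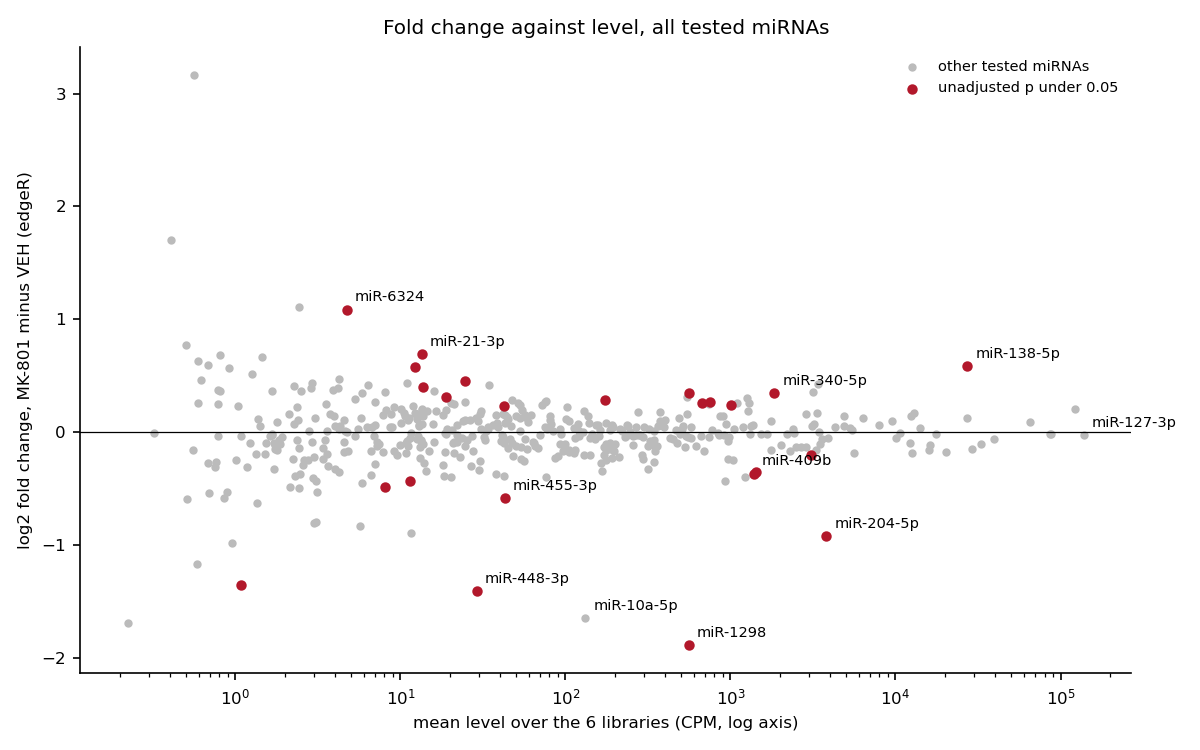
Fitted log2 fold change of MK-801 against VEH (edgeR) for each of the 469 tested miRNAs, against its mean level over the 6 libraries in CPM on a log axis; red points have an unadjusted p under 0.05. Most points lie near 0 at all levels, and miR-138-5p is the red point with the highest level.

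Of the miRNAs averaging at least 10 CPM, the 20 with the smallest unadjusted p are described first. In MK-801 13 were higher and 7 lower, and the groups did not overlap in 17, beside 12.6% of all tested miRNAs. Because the 20 were chosen by p in these same libraries, separated groups and a kept sign follow largely from that choice. All 20 kept their sign in every alternative processing and with each library left out, and none passed the adjusted threshold in any of these settings except miR-138-5p with 1 library left out. Their differences are therefore given as values.

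miR-138-5p, enriched in brain and known from dendrites, where it limits the size of spines by repressing the depalmitoylating enzyme APT1, was the most abundant of the 20. It stood at 21808, 22640 and 21386 CPM in VEH and at 37470, 23716 and 35318 CPM in MK-801. The MK-801 libraries 1 and 3 were 1.71 and 1.61 times the VEH mean, and MK-801 replicate 2 was 1.08 times it, just above the highest VEH library. The log2 fold change was 0.58 ± 0.18 (SE, n = 3 against 3; 95% interval 0.18 to 0.98), with an edgeR adjusted p of 0.588. It depended on the second MK-801 library: without that replicate the log2 fold change was 0.79 and the edgeR adjusted p 0.0316, the single call of that setting. The 3p arms of the 2 hairpins that give this miRNA were scarce. miR-138-1-3p stood at 5.33, 4.42 and 5.91 CPM in VEH and 6.05, 5.34 and 8.26 CPM in MK-801, and miR-138-2-3p was between 6.35 and 7.49 CPM in all 6 libraries. Their log2 fold changes were 0.35 ± 0.23 and 0.06 ± 0.17.

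The miR-101 pair, whose members share their seed and differ at 1 position, repress the histone methyltransferase EZH2 among other targets. miR-101a-3p stood at 501, 512 and 473 CPM in VEH and 672, 627 and 561 CPM in MK-801, a log2 fold change of 0.35 ± 0.10. miR-101b-3p stood at 145, 168 and 159 CPM in VEH and 199, 198 and 169 CPM in MK-801, a log2 fold change of 0.28 ± 0.11. For both, each MK-801 library was above each VEH library, for miR-101b-3p by little. Because the deposited counts may have split reads between such near-identical sequences, the 2 are not independent of each other. The other arm, miR-101a-5p, was between 16.4 and 22.4 CPM, with overlapping groups and a log2 fold change of 0.20 ± 0.13.

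miR-340-5p, whose hairpin lies within the span of Rnf130 in GRCr8, stood at 1603, 1820 and 1499 CPM in VEH and 1875, 2254 and 2037 CPM in MK-801. The lowest MK-801 library was thus slightly above the highest VEH library, and the log2 fold change was 0.35 ± 0.10. Its other arm, miR-340-3p, overlapped between groups at 51.6 to 70.0 CPM (log2 fold change 0.15 ± 0.13). miR-301a-3p was nearly constant within each group, at 684, 703 and 685 CPM in VEH and 822, 801 and 835 CPM in MK-801, and its log2 fold change was 0.27 ± 0.10. The other tested members of its seed family, miR-130a-3p, miR-130b-3p and miR-301b-3p, had log2 fold changes of -0.05, -0.07 and -0.10. The SE was 0.14 for miR-130a-3p, which averaged 580 CPM, and 0.27 for miR-130b-3p, at 2.35 CPM. The larger SE leaves room in miR-130b-3p for a difference like that of miR-301a-3p.

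miR-21 is raised in reactive glia and many inflamed tissues, and its 3p arm had the smallest p of the 20. miR-21-3p stood at 12.8, 10.0 and 8.42 CPM in VEH and 13.2, 18.1 and 18.3 CPM in MK-801, a log2 fold change of 0.69 ± 0.19. The groups were separated only narrowly, between VEH replicate 1 and MK-801 replicate 1. The abundant arm, miR-21-5p, overlapped, at 1263, 1121 and 1052 CPM in VEH and 1190, 1423 and 1549 CPM in MK-801 (log2 fold change 0.30 ± 0.14). In both arms MK-801 replicates 2 and 3 were the highest libraries. miR-184, described as responsive to depolarization in cultured neurons, stood at 11.6, 7.39 and 10.4 CPM in VEH and 17.3, 14.6 and 11.9 CPM in MK-801, a log2 fold change of 0.58 ± 0.19. Here the order was reversed, with MK-801 replicate 3 the lowest of its group and just above VEH replicate 1.

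4 further miRNAs of low level were above VEH in all 3 MK-801 libraries. miR-542-3p stood at 23.2, 19.0 and 20.5 CPM in VEH and 26.6, 30.1 and 28.0 CPM in MK-801 (log2 fold change 0.45 ± 0.15), while miR-542-5p differed by 0.12 ± 0.12. miR-33-5p, whose hairpin lies within the span of the cholesterol regulator gene Srebf2, stood at 15.2, 17.7 and 17.9 CPM in VEH and 19.5, 20.4 and 22.1 CPM in MK-801 (0.31 ± 0.12). miR-142-5p, a miRNA of blood-lineage cells that include microglia, stood at 41.7, 40.5 and 36.8 CPM in VEH and 46.9, 48.1 and 42.5 CPM in MK-801 (0.23 ± 0.10). Its partner miR-142-3p differed by 0.36 ± 0.17.

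miR-24-1-5p stood at 10.0, 14.0 and 12.0 CPM in VEH and 14.6, 15.8 and 16.3 CPM in MK-801 (0.40 ± 0.14). It lies with miR-23b and miR-27b in a cluster within Aopep, and all 5 tested miRNAs of that cluster, among them miR-24-3p, which a hairpin elsewhere also gives, had a log2 fold change above 0, from 0.12 for miR-23b-3p to this highest value. Of them only miR-24-1-5p had an unadjusted p under 0.05, and its letters are the reverse complement of those of miR-3074 over 20 bases, so that reads of the 2 could not be told apart if strand was ignored in counting.

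**Figure D2:**
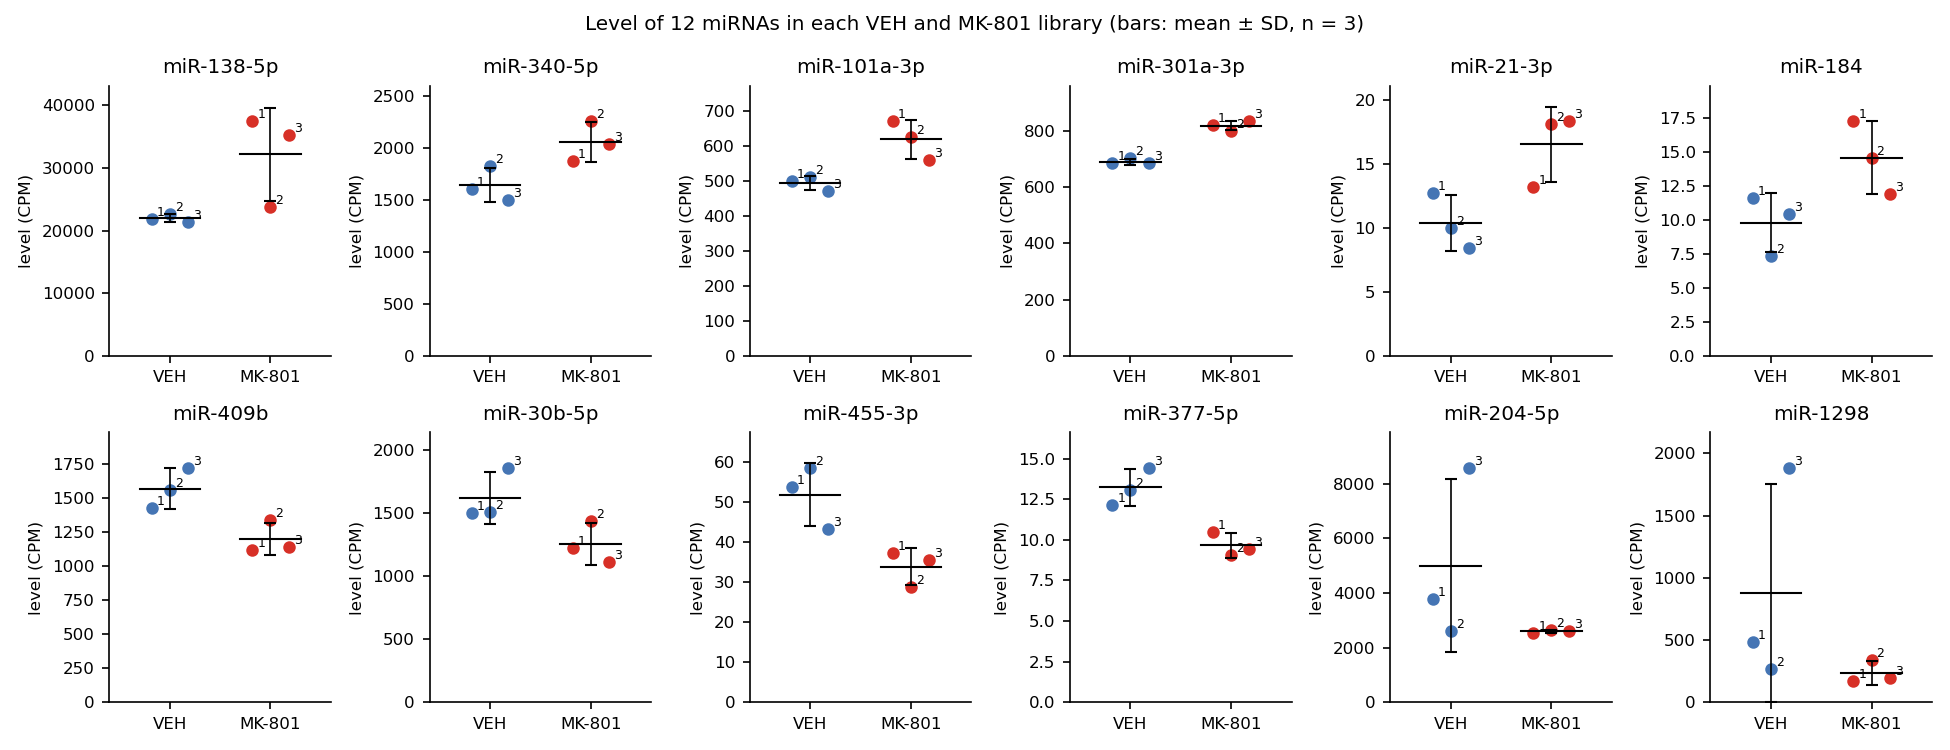
Level in CPM of 12 miRNAs in each library, with VEH in blue and MK-801 in red, the replicate number beside each point and bars for the mean ± SD of 3 libraries. In the upper row the MK-801 points lie above the VEH points, miR-138-5p being held apart by replicates 1 and 3; in the lower row miR-204-5p and miR-1298 overlap and have their highest point in VEH replicate 3.

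The miR-30 family showed members on both sides of 0 although all share 1 seed. miR-384-5p stood at 963, 954 and 866 CPM in VEH and 1119, 1070 and 1044 CPM in MK-801 (log2 fold change 0.24 ± 0.09). miR-30e-5p, from a hairpin within Nfyc, stood at 611, 645 and 599 CPM in VEH and 772, 708 and 696 CPM in MK-801 (0.26 ± 0.09). In both, every MK-801 library was above every VEH library. miR-30b-5p lay the other way, at 1501, 1504 and 1858 CPM in VEH and 1226, 1434 and 1108 CPM in MK-801 (-0.35 ± 0.14), and its value without VEH replicate 3, the highest, was -0.24.

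The other family members were miR-30a-5p at 0.17 ± 0.09, miR-30c-5p at 0.04 ± 0.10 and miR-30d-5p at -0.19 ± 0.17, all with overlapping groups. miR-30d-5p too was highest in VEH replicate 3, and its value without that library was -0.01. Over the 6 members the median log2 fold change was 0.11, beside -0.018 over all miRNAs. As the printed sequences show, miR-30b-5p and miR-30c-5p have the same first 18 bases, and miR-30a-5p, miR-30d-5p and miR-30e-5p differ from each other at 1 or 2 positions, so how the counting shared out reads between them bears on each value and was not tested.

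let-7 miRNAs, which are abundant in mature neurons and restrain proliferation programs, were split by arm. All 9 tested 5p arms of let-7 and miR-98 had a log2 fold change below 0, with a median of -0.13, and all 11 tested 3p arms lay above 0, with a median of 0.11. With upper-quartile scaling these counts were 8 of 9 and 11 of 11, and with library totals 9 of 9 and 10 of 11. With 1 library left out, 8 to 9 of the 5p arms were below 0, with medians from -0.215 to -0.098, and 9 to 11 of the 3p arms above it, with medians from 0.066 to 0.199. The 3p count was 9 without VEH replicate 2, VEH replicate 3 or MK-801 replicate 3. The 5p median was -0.215 without VEH replicate 2, and the 3p median was lowest on leaving out MK-801 replicate 3 and highest on leaving out MK-801 replicate 2. No single difference was large against its error: let-7a-5p stood at -0.18 ± 0.11, and let-7a-1-3p, deposited under a joint name with let-7c-2-3p, at 0.27 ± 0.13. After TMM scaling the groups did not overlap in let-7e-5p, lower in MK-801, and in miR-98-3p, higher and at 0.808 CPM. Over all tested miRNAs that share was 12.6%. None of the 20 had an unadjusted p under 0.05. This grouping by arm was chosen after the values were seen, and its 5p members have near-identical sequences, so it carries no test. The 3p members differ more, with several seeds among them.

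Across all hairpins the 2 arms shared a sign only slightly more often than not. Of 173 pairs of arms with both tested, 95 (54.9%) had both on the same side of 0, and of 26 with both arms over 100 CPM, 13 did. Pearson's r between the log2 fold changes of the 2 arms was 0.34 over the 173 pairs, which share the same libraries. Some arms, such as let-7a-5p and miR-138-5p, enter more than 1 pair.

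**Figure D3:**
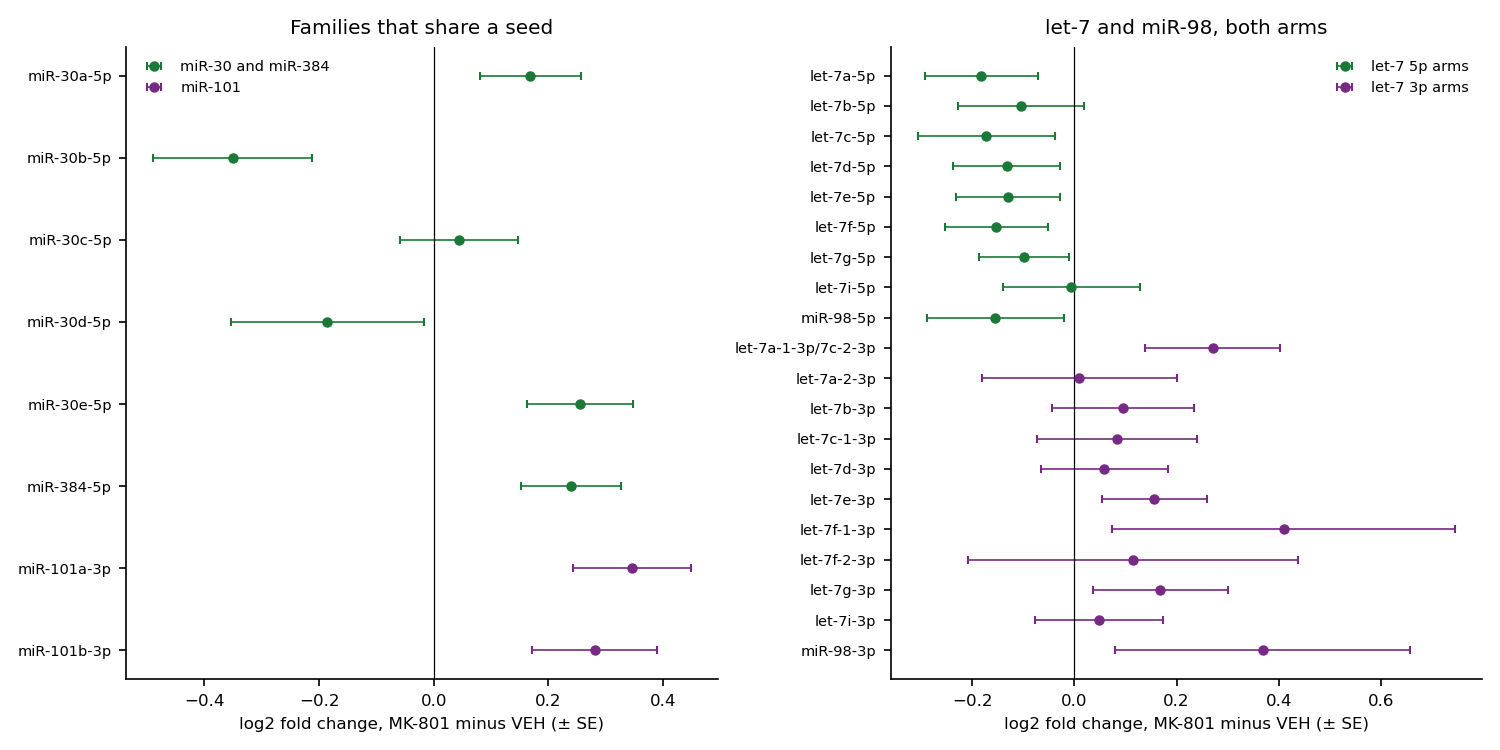
Log2 fold change of MK-801 against VEH (point) with its SE (bar) for the miR-30 and miR-384 family and the miR-101 pair on the left, and for both arms of let-7 and miR-98 on the right. miR-30b-5p lies farthest below 0 among the miR-30 members, and miR-30d-5p also lies below it, with a bar that overlaps that of miR-30b-5p. The let-7 5p arms lie at or below 0 whereas the 3p arms lie above it.

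Of the 7 among these 20 with lower means in MK-801, 4 had groups that did not overlap: miR-30b-5p above, miR-409b, miR-377-5p and miR-455-3p. miR-409b and miR-377-5p come from the large imprinted Dlk1-Dio3 miRNA region, which is strongly expressed in brain. miR-409b stood at 1422, 1558 and 1721 CPM in VEH and 1117, 1335 and 1140 CPM in MK-801, a log2 fold change of -0.37 ± 0.12. Its letters are the reverse complement of those of miR-409a-3p over 20 bases, and that partner averaged 18.7 CPM with a log2 fold change of -0.01 ± 0.21, so the 2 could not be told apart if strand was ignored. miR-377-5p stood at 12.2, 13.1 and 14.4 CPM in VEH and 10.5, 9.04 and 9.44 CPM in MK-801 (-0.43 ± 0.13), while its other arm miR-377-3p differed by 0.03 ± 0.13.

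miR-455 lies within the span of the collagen gene Col27a1, and its arms differed. miR-455-3p stood at 53.6, 58.5 and 43.2 CPM in VEH and 37.3, 28.7 and 35.6 CPM in MK-801, a log2 fold change of -0.58 ± 0.22. Each MK-801 library was below each VEH library. miR-455-5p, at 35.8, 38.5 and 33.9 CPM in VEH and 36.0, 41.4 and 41.2 CPM in MK-801, had a log2 fold change of 0.15 ± 0.11.

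The largest fitted differences among the 20 rested on 1 vehicle library. miR-1298, from a hairpin within the serotonin receptor gene Htr2c, stood at 482, 272 and 1884 CPM in VEH and 170, 343 and 198 CPM in MK-801, a log2 fold change of -1.89 ± 0.59. miR-448-3p, also within Htr2c, stood at 25.5, 17.8 and 83.1 CPM in VEH and 11.8, 24.4 and 11.2 CPM in MK-801 (-1.41 ± 0.53). miR-204-5p, within Trpm3, stood at 3798, 2613 and 8583 CPM in VEH and 2537, 2634 and 2618 CPM in MK-801 (-0.92 ± 0.35).

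In all 3 the groups overlapped and VEH replicate 3 was the highest library. Without it the log2 fold changes were -0.66 for miR-1298, -0.45 for miR-448-3p and -0.28 for miR-204-5p, with unadjusted edgeR p-values of 0.059, 0.23 and 0.153. miR-211-5p has the seed of miR-204-5p but is at a far lower level, 9.08 to 12.3 CPM, and VEH replicate 3 was not the highest there (log2 fold change -0.13 ± 0.17). All 6 tested miRNAs from hairpins within Htr2c, a gene with very high expression in choroid plexus, were below 0 with a median of -0.85. Without VEH replicate 3, 5 of the 6 were, with a median of -0.31. The arm miR-764-5p was counted with its hairpin by name.

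These miRNAs belong to a list of 6 tested choroid plexus markers, all below 0 with a median of -0.86. The summed level of the list was 4322, 2920 and 10571 CPM in the VEH libraries and 2732, 3019 and 2841 CPM in the MK-801 libraries, and without VEH replicate 3 the median was -0.25. The 5 tested miRNAs of multiciliated cells such as ependyma, from the miR-34b, miR-34c and miR-449a hairpins, were also all below 0, with a median of -0.37 and none at an unadjusted p under 0.05. Their summed level was 1535, 1104 and 1898 CPM in VEH and 949, 1534 and 942 CPM in MK-801. MK-801 replicate 2 thus lay among the VEH libraries for them, and the median was -0.18 without VEH replicate 3. Whether tissue next to the hippocampus was carried along in dissection was not tested, and in whole tissue fewer cells of a type and less RNA per cell cannot be told apart.

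**Figure D4:**
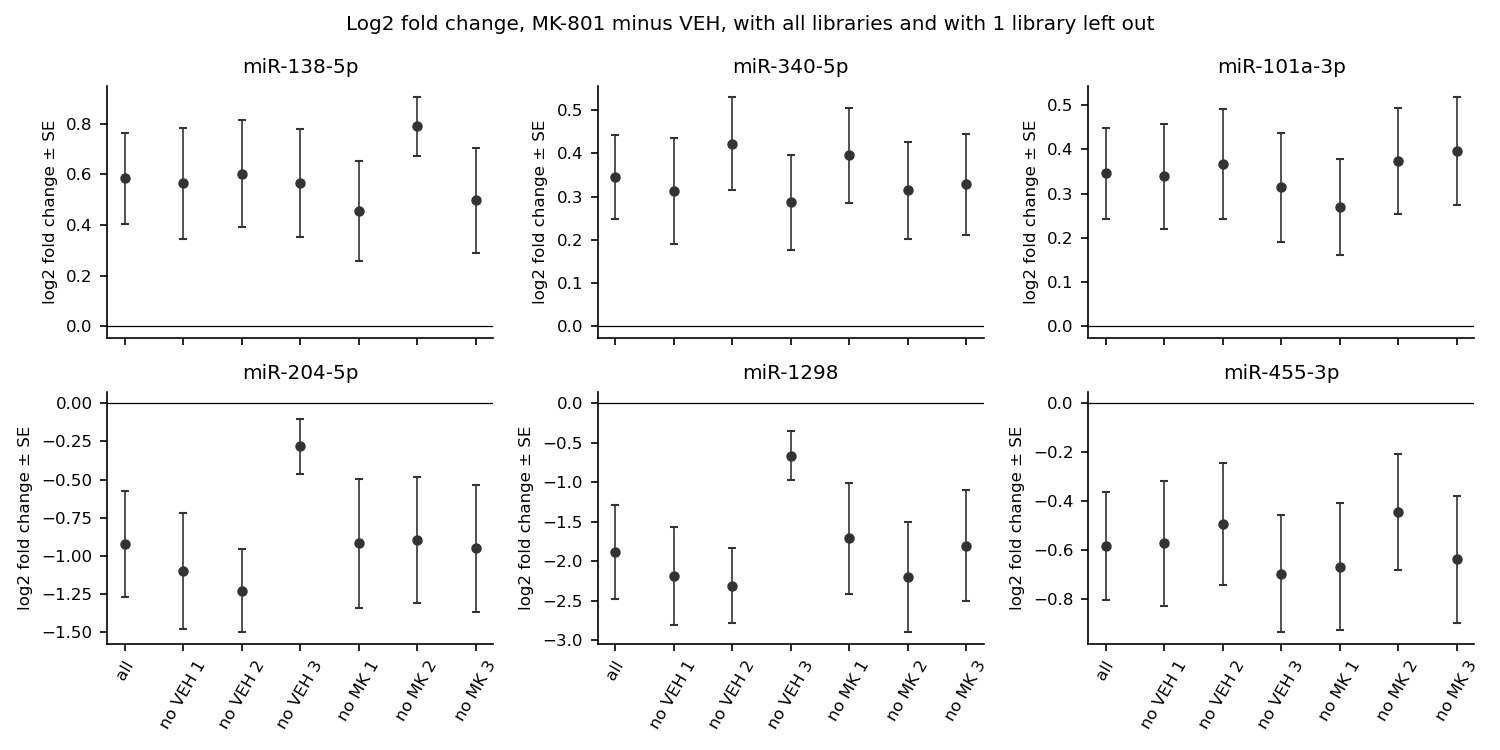
Log2 fold change of 6 miRNAs with its SE, fitted on all libraries and with each VEH or MK-801 library left out in turn. miR-204-5p and miR-1298 move toward 0 without VEH replicate 3, miR-138-5p is highest without MK-801 replicate 2, and the values of miR-340-5p, miR-101a-3p and miR-455-3p stay on 1 side of 0.

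miR-10a-5p, a miRNA of the Hox clusters and typical of caudal rather than forebrain tissue, varied more between VEH libraries than any other miRNA of at least 10 CPM. It stood at 119, 448 and 36.3 CPM in VEH and 62.6, 53.7 and 70.8 CPM in MK-801, and the fitted log2 fold change was -1.65 ± 0.79 with VEH replicate 2 and -0.29 without it. The spread was otherwise alike in the groups: over 334 miRNAs of at least 10 CPM the median SD of the log2 level was 0.126 in VEH and 0.13 in MK-801.

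miRNAs of activity and plasticity, the groups nearest to NMDA receptor signalling, were centred near 0. Of 13 activity-dependent miRNAs 6 were above and 7 below 0, with a median of -0.016. Only miR-184 had an unadjusted edgeR p under 0.05, beside 5.12% of all miRNAs tested. After TMM scaling the groups did not overlap in 1 higher in MK-801, miR-184, and 2 lower, miR-129-2-3p and miR-191a-5p. Over all tested miRNAs that share was 12.6%. miR-132-3p and miR-212-3p come from a hairpin pair induced by CREB. miR-132-3p stood at 1807, 1816 and 1512 CPM in VEH and 1769, 1847 and 1786 CPM in MK-801, and miR-212-3p was between 465 and 537 CPM in all 6 libraries. The groups overlapped in both, and the 95% intervals of their log2 fold changes, -0.27 to 0.46 and -0.27 to 0.24, leave out a 1.5-fold difference either way. miR-134-5p, which represses Limk1 in dendrites, differed by -0.13 ± 0.15, and miR-129-5p by 0.03 ± 0.13.

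Of 16 dendrite and plasticity miRNAs, 7 were above and 9 below 0, with a median of -0.009. The 3 with an unadjusted p under 0.05, beside a background of 5.12%, were miR-138-5p, miR-101a-3p and miR-101b-3p, all higher in MK-801. After TMM scaling the groups did not overlap in 4 higher in MK-801, those 3 and the scarce miR-223-3p, and in 1 lower. Over all tested miRNAs that share was 12.6%. miR-125a-5p, which acts on the synaptic scaffold protein PSD-95, lay the other way at 17551, 16799 and 16816 CPM in VEH and 15073, 14694 and 15241 CPM in MK-801. Its groups did not overlap, and its log2 fold change was small at -0.16 ± 0.08. miR-181a-5p, the most abundant miRNA after miR-127-3p, differed by 0.20 ± 0.13, with MK-801 replicates 2 and 3 above and replicate 1 within the VEH range.

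Among 12 neuron-enriched miRNAs 6 were above and 6 below 0, with a median of 0.012. miR-124-3p differed by 0.07 ± 0.13, miR-128-3p by -0.11 ± 0.14 and miR-9a-5p by -0.01 ± 0.09. Of the 10 most abundant miRNAs, miR-138-5p and miR-191a-5p had groups that did not overlap, beside 12.6% of all tested miRNAs. miR-191a-5p stood at 34024, 34115 and 34883 CPM in VEH and 32313, 29760 and 32114 CPM in MK-801, a log2 fold change of -0.10 ± 0.08. Apart from miR-138-5p, these 10 ran from -0.15 for let-7f-5p to 0.20 for miR-181a-5p.

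Lists of other cell types gave further values beside these. Of 9 miRNAs of reactive glia and leukocytes, 6 were above 0 with a median of 0.30, and 2, miR-21-3p and miR-142-5p, had an unadjusted p under 0.05, beside 5.12% of all miRNAs tested. In 4 of the 9, all higher in MK-801, the groups did not overlap after TMM scaling, beside 12.6% in either direction over all miRNAs: these were both arms of miR-142, miR-21-3p and miR-223-3p, the last at about 1 to 2 CPM. Members lay on both sides of 0: miR-155-5p stood at -0.43 ± 0.22, miR-146a-5p at -0.21 ± 0.27 and miR-21-5p, as above, at 0.30 ± 0.14. Its summed level, mostly miR-146b-5p, was 6114, 3928 and 4387 CPM in VEH and 5851, 5047 and 6309 CPM in MK-801, which overlap.

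Of the 4 oligodendrocyte miRNAs, 3 were above 0 with a list median of 0.34. miR-338-3p, which promotes oligodendrocyte maturation, stood at 3467, 2798 and 2515 CPM in VEH and 2846, 4450 and 4383 CPM in MK-801 (log2 fold change 0.43 ± 0.21), and miR-219a-5p, with the same role, differed by 0.42 ± 0.24. Both were highest in MK-801 replicates 2 and 3, whereas replicate 1 lay within the VEH range. miR-219a-2-3p differed by 0.26 ± 0.24. The other arm of miR-338 lay the other way: miR-338-5p stood at 1548, 536 and 1116 CPM in VEH and 531, 1158 and 672 CPM in MK-801 (-0.44 ± 0.37), with overlapping groups. The letters of miR-338-5p are the reverse complement of those of miR-3065-3p over 19 bases. The same holds over 20 bases for miR-338-3p with miR-3065-5p and for miR-219a-2-3p with miR-219b. These partners averaged 47.5, 0.033 and 53.0 CPM. Reads of such pairs could not be told apart if strand was ignored in counting. MK-801 replicates 2 and 3 are also the libraries in which miR-21-3p and miR-21-5p were highest, and replicate 2 is the one in which miR-138-5p was lowest of its group. Whether the makeup of the dissected tissue has a part in these values was not tested.

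All 4 red blood cell miRNAs were below 0, with a median of -0.16. miR-486 had an unadjusted edgeR p of 0.046 and stood at 3025, 3524 and 3351 CPM in VEH and 2671, 3046 and 2747 CPM in MK-801. miR-451-5p, the most specific of these markers, was low at 20.6 to 28.6 CPM in all libraries (log2 fold change -0.12 ± 0.18). Of 5 tested vascular miRNAs 2 were above 0 with a median of -0.014, and of 5 tested epithelial miRNAs 1 was above 0 with a median of -0.089. The 4 tested miRNAs of muscle, liver or endocrine cells had a median of -0.11.

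**Figure D5:**
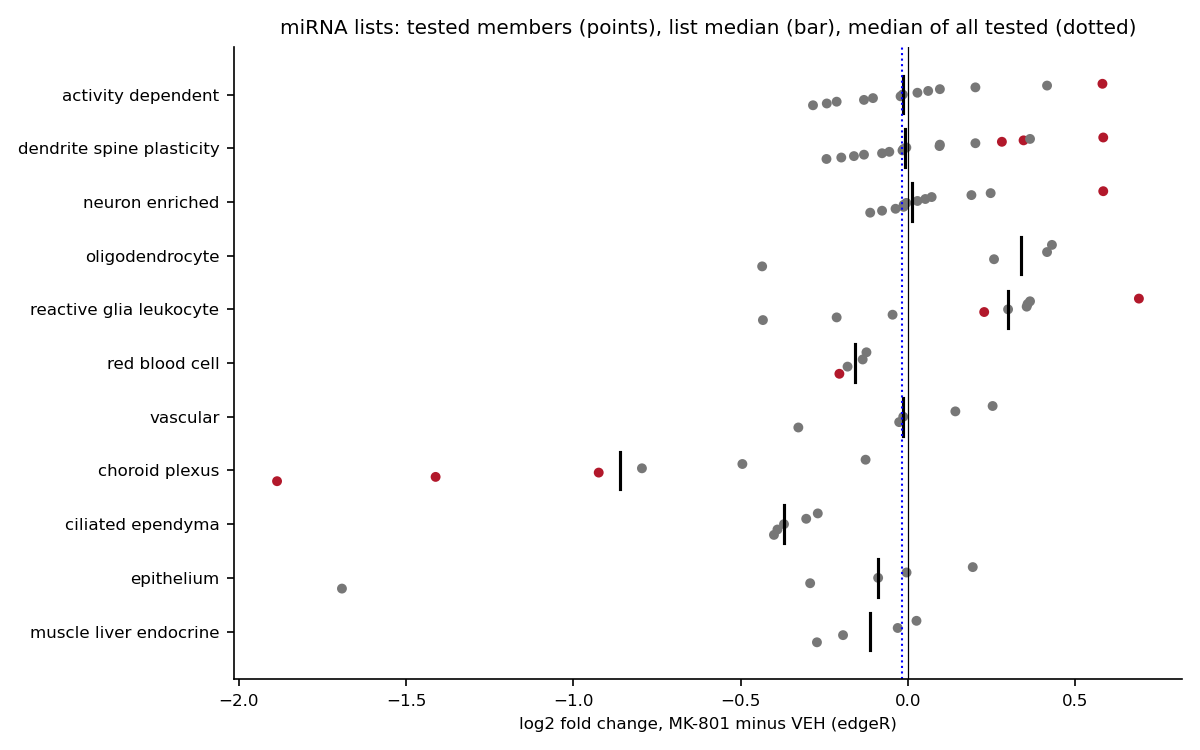
Log2 fold change of MK-801 against VEH for each tested member of 11 miRNA lists (points, red where the unadjusted p is under 0.05), with the list median as a bar and the median of all tested miRNAs as a dotted line. The activity, dendrite and neuron lists are centred near 0, and the choroid plexus list lies farthest below it.

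miR-6324 had the smallest p of all tested miRNAs but a level too low for the group of 20. It stood at 3.54, 2.55 and 3.01 CPM in VEH and 6.19, 7.40 and 5.64 CPM in MK-801, about 2.12-fold higher by the fit (log2 fold change 1.09 ± 0.21). Each MK-801 library was well above each VEH library. The edgeR adjusted p was 0.182 and the DESeq2 adjusted p 0.0261. Its hairpin lies within the span of Brwd1, a gene of a bromodomain protein. It has no second arm in the table.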

How the data were processed

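The authors deposited 1 table with a whole-number count per miRNA and library and values headed TPM. Those deposited values equal CPM, each count over its library total, to within 0.000473%. The submitters' processing notes name Bowtie, DESeq, cutadapt 1.14 and the build Rnor_6.0, without their roles. Not given in the sources used here: how reads that match several miRNAs were shared out, and whether strand was used. The table held 21 blank lines and 1 name split over lines, which was rejoined. Joint names of several miRNAs were kept for 3 entries.

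Log2 fold changes came from edgeR 4.0.16 in R 4.3.3, run on these counts (TMM factors, filterByExpr, glmQLFit, glmQLFTest, 1 mean per group, all 9 libraries). The p-values were Benjamini-Hochberg adjusted over the 469 miRNAs tested. SE is the absolute log2 fold change over the square root of F, with a median of 0.159. Alternatives were DESeq2 1.42.0, limma 3.58.1 voom, other scalings and filters, the 6 libraries alone, a replicate block and each library left out. The code was tested on simulated data.

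The comparison, the 12 miRNA lists (activity, dendrite and plasticity, neuron, choroid plexus, ciliated, epithelium, vascular, red blood cell, oligodendrocyte, glia and leukocyte, Hox, and muscle, liver and endocrine) and their members were chosen with earlier results of these data known. Of the names listed, 3 are not in the table, miR-211-3p, miR-449a-3p and miR-208a-3p. The Hox list had 1 tested member, miR-10a-5p. Named miRNAs were those past the adjusted threshold or, failing that, the 20 with the smallest unadjusted p at a mean of at least 10 CPM, list members, their other arms, seed families and cluster neighbours, the 10 most abundant, and any called by DESeq2. The rule for naming also covered up to 10 miRNAs of at least 10 CPM with groups that did not overlap and the largest absolute log2 fold changes. Clusters are hairpins within 10 kb on the same strand. Host genes are those whose span in RefSeq GRCr8 holds the hairpin. Strand was not compared, and no coordinates are given because that assembly differs from Rnor_6.0.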

Additional observations from a re-analysis of the deposited data

How the results depend on the processing

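The count of 0 calls at an adjusted p of 0.05 in edgeR became 1 with DESeq2 and 0 to 1 when libraries were left out in turn. The 24 miRNAs at an unadjusted p under 0.05 became 15 to 37 with a library left out. With the replicate number as a block edgeR had 25, 15 higher and 10 lower, with 0 adjusted calls, a smallest adjusted p of 0.698, so that no call changed. Same-numbered libraries did not deviate together (correlations of -0.0425, 0.032 and -0.237 over miRNAs), so the numbers were not taken as pairs.

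With 1 library left out, list medians ran from 0.159 to 0.535 for oligodendrocytes, -1.145 to -0.253 for choroid plexus, -0.59 to -0.178 for ciliated cells and -0.375 to 0.192 for epithelium. Without VEH replicate 3 and MK-801 replicate 2 together, an alternative chosen after seeing the data, choroid plexus stood at -0.451 and epithelium at -0.456. A set of 72 of the named miRNAs was followed through the settings. Other named miRNAs with values near 0, such as miR-9a-5p, miR-129-5p and miR-130a-3p, were not in that set and are not counted here. With upper-quartile scaling the median log2 fold change over all tested miRNAs was 0.074, beside -0.018 in the main fit. Of the 72, 67 kept their sign in every setting. The sign turned for the other 5. With libraries left out, miR-138-2-3p ran from -0.015 (without VEH replicate 1) to 0.174, miR-377-3p from -0.097 (without MK-801 replicate 1; -0.018 without VEH replicate 3) to 0.107, and miR-30d-5p from -0.306 to 0.018 (without both). miR-204-3p ran from -0.764 to 0.069 without VEH replicate 3 and 0.219 without both. miR-212-3p stood at 0.080 with upper-quartile scaling, 0.0066 at a minimum of 10 CPM, 0.037 and 0.049 without VEH or MK-801 replicate 2, -0.080 without MK-801 replicate 3, and 0.0092 without VEH replicate 3 and MK-801 replicate 2 together. The cause was not tested. With 3 libraries a group the median SE of 0.159 on the log2 scale limits the precision for single miRNAs.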

Other observations

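The miRNAs above VEH in all 3 MK-801 libraries had a lower GC content than those below it in all 3, with medians of 40.9 and 50.0% beside 47.8% over all tested miRNAs. Over the tested miRNAs, which are not independent replicates and share the same libraries, Pearson's r of the log2 fold change with GC content was -0.156, and -0.119 at 10 CPM or more. Within the miR-125 seed family, miR-125a-5p (-0.16), miR-125b-5p (-0.06 ± 0.09) and miR-351-5p (-0.25) were all below 0 in the main fit. The groups did not overlap for miR-125a-5p and miR-351-5p, beside 12.6% of all tested miRNAs. Upper-quartile scaling moved the median over all tested miRNAs from -0.018 to 0.074, so a sign as near 0 as that of miR-125b-5p may turn with the scaling. The miR-99 and miR-100 family members were all above 0, from 0.14 to 0.17, with overlapping groups. Both families were picked from many and carry no test.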
